A study of Mus musculus with 21 samples.

Results

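The members described here are enzymes of conjugation, ester hydrolysis and aldehyde metabolism in the mouse embryonic intestine. They are all genes whose platform symbol begins with Ugt, Sult, Ces, Aldh, Adh or Akr1 followed at once by a number, or for Akr1 by a letter and a number. That name rule uses no measured value, but the members were chosen with earlier results of these data known. It found 152 probes of 93 genes, out of 19057 genes with a symbol on the array, and 41 of the 93 were bright enough to be tested. RNA came from whole small intestine at stage E18.5, with 10 samples labelled Prdm1-/- and 11 labelled Prdm1+/+, each a biological replicate by its label on 1 Illumina WG6_V2 bead array. The mutants carried the Villin-Cre transgene together with the CA and the BEH allele of Prdm1, and the controls carried the CA allele and a wild-type allele. Both groups descended from mothers homozygous for the CA allele that carried R26R, and the strain background was mixed. Prdm1 encodes the transcriptional repressor Blimp1. Villin-Cre acts in gut epithelium, whereas the BEH allele is carried in every cell of a mutant embryo. Because the design text names Villin-Cre only for the mutants, an effect of the transgene itself and one of the Prdm1 alleles cannot be told apart. In whole tissue, fewer cells of a type and less RNA per cell cannot be told apart either.

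The families take part in the handling of fat-soluble compounds that the gut absorbs or makes. UDP-glucuronosyltransferases, to which the tested Ugt genes belong, attach glucuronic acid to bilirubin, steroids and drugs. Sulfotransferases (Sult) attach sulfate, and both products are more soluble in water and are pumped out of the cell. Carboxylesterases (Ces) cleave esters of lipids and drugs. Alcohol dehydrogenases (Adh) oxidise alcohols to aldehydes, including retinol to retinal, aldehyde dehydrogenases (Aldh) oxidise aldehydes to acids, including retinal to retinoic acid, and the Akr1 aldo-keto reductases reduce aldehydes and ketones.

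The targeted gene was examined first. One Prdm1 probe was detected on all 10 arrays labelled Prdm1-/- (6.99 to 8.78, median 7.97 log2 intensity) and on none of the 11 arrays labelled Prdm1+/+ (4.33 to 4.98, median 4.49). It was at least 7.31-fold higher in the labelled mutants (limma adjusted p = 1.64e-12), and the other Prdm1 probe stayed undetected throughout. The labels do not place these probes with respect to the recombined region, so they do not check the deletion. The groups are called labelled mutants and labelled controls below, and every direction rests on those labels. On each array 14596 to 16085 probes were detected, and correlations between arrays ran from 0.971 to 0.993. The first component of the variation within the genotypes held 32.3% of that variance and split the arrays into 4 labelled mutants and 6 labelled controls on one side (A) and 6 labelled mutants and 5 labelled controls on the other (B). The labels give no litter, sex or slide, so the nature of this split is not known.

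Levels are log2 intensities after background correction and quantile normalisation. Each difference is the mean of the 10 labelled mutants minus the mean of the 11 labelled controls on that log2 scale, ± SE from limma. A gene was called at a Benjamini-Hochberg adjusted p under 0.05 over all 16641 probes tested, and a gene is represented by its brightest tested probe. Levels of different probes are not comparable with each other.

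Of the 41 members tested, 16 were called higher in the labelled mutants, 2 were called lower and 23 were not called. This is 43.9% called, against 23.2% of all 9961 genes tested. In the direction of higher signal in mutants the share over all genes was 10.6%, and in the direction of lower signal it was 12.6%. The median difference was 0.17 over the 41 members and 0.01 over all genes, and the median size of the difference regardless of sign was 0.26 and 0.13. At least 2-fold differences were called for 6 members, against 2.11% of all genes. These include Adh4, Ces1e and Ugt1a9, which were not above background on some arrays. Without background correction Adh4 had 0.78, Ces1e 0.47, Ugt1a9 -0.73 and Sult2b1 0.97, below 2-fold, while Aldh1a1 had 1.69 and Aldh1a7 1.06. The share of all genes at that setting was not counted. The groups did not overlap on any array for 8 members (19.5%), against 4.4% of all genes. Adh4 and Ces1e are also among these 8. A gene seen in 1 group alone can enter these counts only by differing. Among the 38 members detected on at least 5 arrays of each group, 14 were higher, 2 were lower and 42.1% were called, against 23.2% of the 9222 genes so detected. Counted by probe, 21 of the 59 tested member probes were higher and 4 lower, against 20.9% of all tested probes called in either direction. With the arrays brought to 1 common median in place of quantile normalisation, 12 members were higher and 4 lower, so that 75% of called members were higher, against 88.9% above. Under that scaling the share of higher genes among all called genes was 26.9%, against 45.7% with quantile normalisation.

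By family, the counts below stand beside 10.6% of all genes called higher and 12.6% called lower. Among the alcohol dehydrogenases 3 of 4 tested genes were called higher and none lower (median difference 0.78), and among the carboxylesterases 3 of 4 were higher and none lower (median 0.79). These counts and medians include genes that entered the test mainly through the labelled mutants, namely Adh4, Adh6a and Ces1e. Of the genes detected on at least 5 arrays of each group, 2 of 2 alcohol dehydrogenases and 2 of 3 carboxylesterases were higher, and in the other families the tested genes were all so detected. The aldehyde dehydrogenases had 5 higher and 1 lower of 15, with a median of only 0.12 but the widest upward reach, to 2.11. Among the glucuronosyltransferases 3 were higher and 1 lower of 8 (median 0.21, from -1.38 to 0.52). The sulfotransferases had 1 of 4 higher (median 0.14), and the aldo-keto reductases had 1 of 6 higher, by 0.14, with a median of -0.11. No test compared the families with each other, since the families hold few tested genes.

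**Figure D1:**
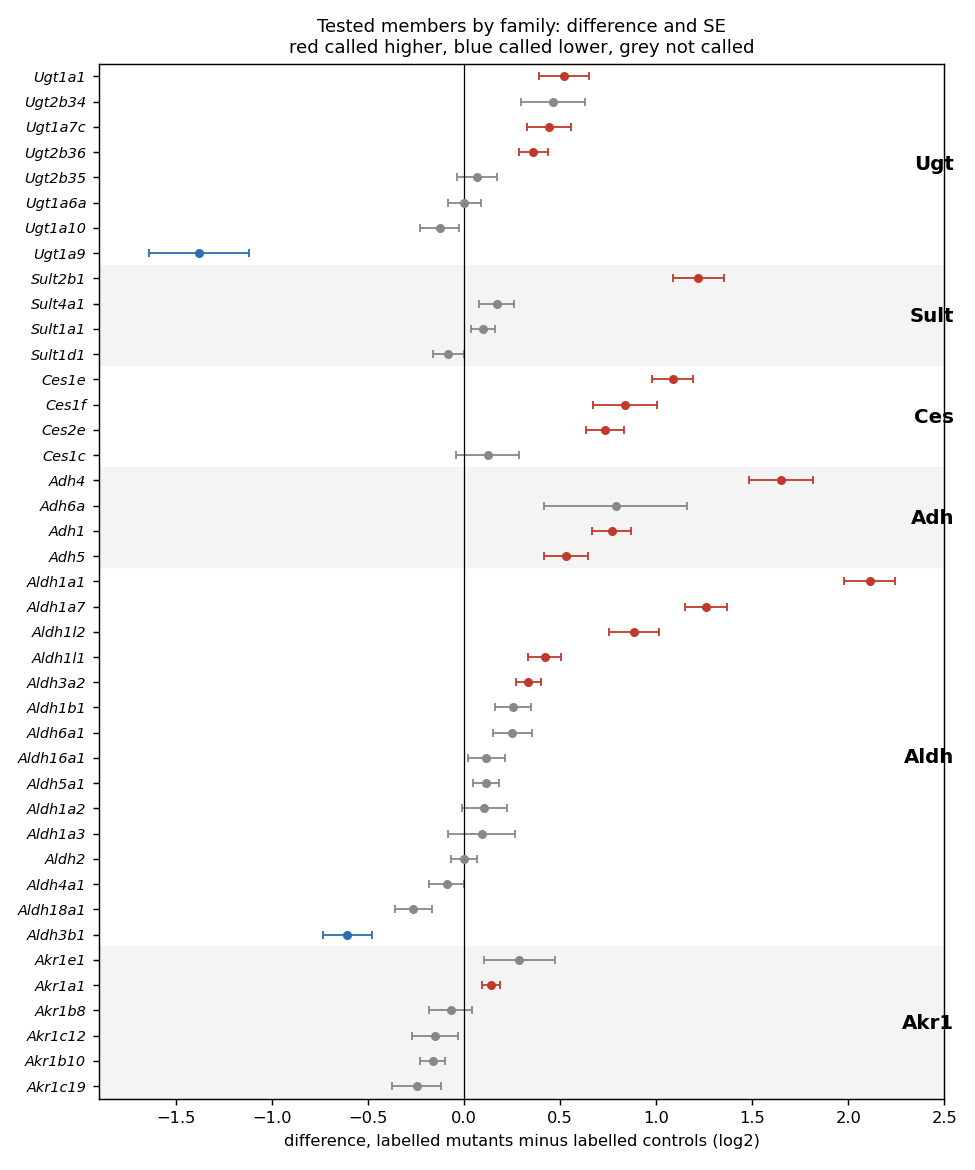
Difference between the genotypes for each of the 41 tested members, grouped by family (vertical axis, genes; horizontal axis, difference of log2 intensity, labelled mutants minus labelled controls; bars, SE from limma; n = 10 and 11 arrays). Red points are genes called higher in labelled mutants, blue points genes called lower and grey points genes not called. All tested Ces and Adh genes lie right of 0, most Akr1 genes lie close to it, and the differences reach from -1.38 (Ugt1a9) to 2.11 (Aldh1a1). The point of Adh4 is its measured difference, although its probe was not detected in any labelled control.

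The largest difference of all members was that of Aldh1a1, which encodes a cytosolic retinal dehydrogenase and lies beside Aldh1a7 in the gene order. Aldh1a1 read 8.67 to 9.60 in the labelled mutants (median 9.08), against 6.52 to 7.74 in the labelled controls (median 6.97). Every labelled mutant lay above every labelled control. The difference was 2.11 ± 0.13, or 4.32-fold (limma adjusted p = 3.63e-11). Aldh1a7 encodes a closely related rodent enzyme that is known for little activity on retinal. It read 8.65 to 9.63 in the labelled mutants (median 8.92), against 7.37 to 8.06 in the labelled controls (median 7.72), again without overlap. It was 2.39-fold higher (1.26 ± 0.11, limma adjusted p = 8.78e-09). The sequences of these probes are not known here, so signal that a probe of one takes from transcripts of the other cannot be separated.

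The promoters of this pair are shown because the neighbours moved together. Each is the stretch of 250 bases before the transcription start in the RefSeq table of build GRCm38.p6, printed 5′ to 3′ on the gene's own strand. Aldh1a1 is at chr19:20601718-20601967 on the plus strand (the second of 2 windows the table gives for it) and Aldh1a7 at chr19:20727557-20727806 on the minus strand. Of the 2 Aldh1a1 windows, the one with the longer run in common with Aldh1a7 was chosen. Capitals mark the longest run of bases the printed windows share.
Aldh1a1: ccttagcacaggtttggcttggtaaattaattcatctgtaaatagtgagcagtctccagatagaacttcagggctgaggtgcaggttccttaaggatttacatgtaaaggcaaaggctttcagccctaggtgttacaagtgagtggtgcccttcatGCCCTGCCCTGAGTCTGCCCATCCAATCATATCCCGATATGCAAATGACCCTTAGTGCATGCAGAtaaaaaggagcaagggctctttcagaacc
Aldh1a7: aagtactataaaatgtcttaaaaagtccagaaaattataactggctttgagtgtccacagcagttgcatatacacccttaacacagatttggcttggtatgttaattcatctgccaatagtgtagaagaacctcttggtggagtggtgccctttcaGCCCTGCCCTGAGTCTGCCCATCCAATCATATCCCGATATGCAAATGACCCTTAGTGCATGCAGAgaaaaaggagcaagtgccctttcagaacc
The shared run is 65 bases long and begins at position -94 from the start in both genes. Among the promoters of the table it was found in these 2 genes alone. As the run was defined by the match between them, its absence elsewhere says nothing about regulation.

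The other retinal dehydrogenases did not show such a difference. Aldh1a2 differed by 0.11 ± 0.12 (limma adjusted p = 0.597) and Aldh1a3 by 0.09 ± 0.17 (limma adjusted p = 0.788). The 95% interval of the difference reached from -0.13 to 0.35 for Aldh1a2 and from -0.27 to 0.45 for Aldh1a3. Aldh1l2 and Aldh1l1 encode the mitochondrial and the cytosolic formyltetrahydrofolate dehydrogenase, enzymes of folate metabolism. Aldh1l2 was detected in all 10 labelled mutants and in 7 of 11 labelled controls. It read 5.91 to 7.00 in the labelled mutants (median 6.10), against 5.00 to 5.88 in the labelled controls (median 5.27), without overlap, and was 1.84-fold higher (0.88 ± 0.13, limma adjusted p = 1.97e-05). Aldh1l1 read 7.28 to 8.02 in the labelled mutants (median 7.66), against 6.94 to 7.57 in the labelled controls (median 7.26). Of the 10 labelled mutants 8 lay above all labelled controls, and the difference was 0.42 ± 0.09 (1.34-fold, limma adjusted p = 9.71e-04).

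Within the Aldh3 branch the called genes moved in opposite directions. Aldh3a2, the fatty aldehyde dehydrogenase, was 1.26-fold higher (0.34 ± 0.07, limma adjusted p = 6.36e-04), with 10.14 to 10.64 in the labelled mutants (median 10.40) and 9.82 to 10.26 in the labelled controls (median 10.08). Its second tested probe gave 0.31 ± 0.06 (limma adjusted p = 6.83e-04). The groups overlapped, with 8 labelled mutants above all labelled controls, and under median scaling Aldh3a2 had 0.24 ± 0.08 and was not called (limma adjusted p = 0.0507). Aldh3b1, an enzyme of medium- and long-chain aldehydes, read 7.57 to 8.71 in the labelled mutants (median 8.25), against 8.56 to 9.22 in the labelled controls (median 8.80). It was the only aldehyde dehydrogenase called lower, by -0.61 ± 0.13 (limma adjusted p = 0.00112), and 7 of 10 labelled mutants lay below every labelled control. Its other tested probes gave -0.60 ± 0.14 (limma adjusted p = 0.00268) and -0.45 ± 0.11 (limma adjusted p = 0.0054). Without the 6 arrays that carried signal of the colon gene Car1, which leaves 4 labelled mutants, the difference of the first probe was -0.36 ± 0.12 and was not called (limma adjusted p = 0.0627).

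The remaining aldehyde dehydrogenases were not called. Aldh2, the mitochondrial enzyme of acetaldehyde oxidation, read 11.50 to 11.93 in the labelled mutants and 11.54 to 12.10 in the labelled controls. Its difference was 0.00 ± 0.07, with a 95% interval from -0.14 to 0.14. Aldh1b1, a mitochondrial relative of Aldh2, read 10.35 to 11.16 in the labelled mutants (median 10.68) and 9.97 to 10.76 in the labelled controls (median 10.38). It differed by 0.25 ± 0.09 and missed the threshold (limma adjusted p = 0.0587). Aldh18a1, the bifunctional enzyme that begins proline synthesis, had -0.26 ± 0.10 (limma adjusted p = 0.0525) and was called lower in 8 of 15 alternative analyses. Aldh6a1, of valine breakdown, had 0.25 ± 0.10 (limma adjusted p = 0.0862), and without the 6 arrays with Car1 signal it had 0.46 ± 0.12 and was called higher (limma adjusted p = 0.0226). Aldh4a1, Aldh5a1 and Aldh16a1 differed by -0.09 to 0.12.

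The alcohol dehydrogenases form a run of 6 neighbouring members in the RefSeq gene order, from Adh7 over Adh1, Adh6a, Adh6-ps1 and Adh4 to Adh5. Adh1 encodes the class I enzyme that oxidises ethanol and retinol. It read 11.51 to 11.94 in the labelled mutants (median 11.75), against 10.54 to 11.35 in the labelled controls (median 10.92). The groups did not overlap, and the difference was 0.77 ± 0.10 (1.70-fold, limma adjusted p = 4.32e-06). A second Adh1 probe gave 0.74 ± 0.14 (limma adjusted p = 2.8e-04). Adh4, the class II enzyme, was detected on all 10 arrays of the labelled mutants (5.56 to 7.33, median 6.40). On the arrays of the labelled controls it was not well above background (4.48 to 5.06, median 4.79). It was at least 2.49-fold higher in the labelled mutants (limma adjusted p = 7.5e-08), where the bound sets their mean against the lowest signal that counts as detected. Adh5 encodes the class III enzyme, a glutathione-dependent formaldehyde dehydrogenase. It read 9.13 to 9.83 in the labelled mutants (median 9.76), against 8.41 to 9.35 in the labelled controls (median 9.10). It was 1.44-fold higher (0.53 ± 0.11, limma adjusted p = 0.00146), with 8 labelled mutants above all labelled controls.

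Adh6a had an uneven pattern. It was detected in 4 of 10 labelled mutants, at 7.26 in mutant 1, 6.08 in mutant 6, 6.85 in mutant 7 and 6.87 in mutant 8, and in 1 of 11 labelled controls, control 8, at 5.04. The other 6 labelled mutants read 4.21 to 4.39, at the level of background. Its difference of 0.79 ± 0.37 was not called (limma adjusted p = 0.146). On side A of the array split, where 3 of those 4 mutants lie, it was 1.67 ± 0.46 (limma adjusted p = 0.0336), and on side B it was 0.16 ± 0.41 (limma adjusted p = 0.876).

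**Figure D2:**
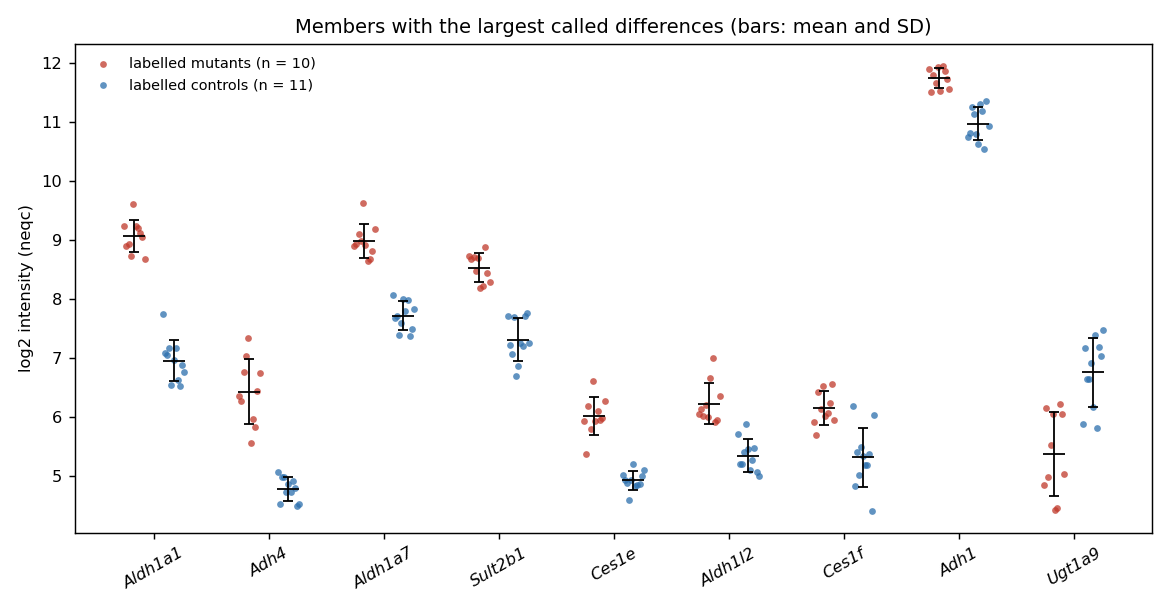
Signal of the 9 members with the largest called differences on each array (vertical axis, log2 intensity; horizontal axis, genes; 1 point per array, red for the 10 labelled mutants on the left of each pair and blue for the 11 labelled controls on the right; bars, mean and SD). The groups are apart for Aldh1a1, Adh4, Aldh1a7, Sult2b1, Ces1e, Aldh1l2 and Adh1, whereas those of Ces1f and Ugt1a9 overlap.

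Carboxylesterases lie in a Ces1 run and a run of Ces2, Ces3 and Ces4 genes, and called members came from both. Ces1e was detected in all 10 labelled mutants (5.38 to 6.61, median 5.96) and in 2 of 11 labelled controls (4.60 to 5.20, median 4.93). Every labelled mutant lay above every labelled control, and the measured difference was 1.09 ± 0.11 (2.12-fold, limma adjusted p = 4.39e-08). As most labelled controls were not above background, that difference depends on the background level. Ces1f read 5.69 to 6.55 in the labelled mutants (median 6.10), against 4.41 to 6.18 in the labelled controls (median 5.34), of which 8 were detected. It was 1.79-fold higher (0.84 ± 0.17, limma adjusted p = 7.04e-04) with overlapping groups, 4 labelled mutants lying above all labelled controls. Ces2e, of the branch that is abundant in the gut, read 7.61 to 8.31 in the labelled mutants (median 8.04), against 6.95 to 7.54 in the labelled controls (median 7.26). It was 1.66-fold higher without overlap (0.73 ± 0.10, limma adjusted p = 5.61e-06). Ces1c, known as an esterase of mouse plasma, was not called with either of its tested probes (0.12 ± 0.16, limma adjusted p = 0.676, and -0.18 ± 0.41, limma adjusted p = 0.832). The genes of these runs are close paralogs, so a probe may also take up signal of a neighbour.

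Among the sulfotransferases Sult2b1 was the only gene called. It encodes the enzyme that sulfates cholesterol and other sterols. It read 8.18 to 8.88 in the labelled mutants (median 8.58), against 6.69 to 7.77 in the labelled controls (median 7.25). No labelled mutant overlapped the labelled controls, and the difference was 1.22 ± 0.13 (2.33-fold, limma adjusted p = 2e-07). Its further probes gave 1.01 ± 0.13 (limma adjusted p = 4.17e-06) and 0.80 ± 0.14 (limma adjusted p = 1.53e-04). Sult1d1, an enzyme of catecholamines in mice, read 9.14 to 9.70 in the labelled mutants (median 9.39), against 9.16 to 9.77 in the labelled controls (median 9.57). It differed by -0.08 ± 0.08 (limma adjusted p = 0.543), with a 95% interval from -0.25 to 0.08, and a second probe gave 0.11 ± 0.09 (limma adjusted p = 0.451). The phenol sulfotransferase Sult1a1 (0.10 ± 0.06, limma adjusted p = 0.289) and Sult4a1, a form known from the brain (0.17 ± 0.09, limma adjusted p = 0.202), were not called either.

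The glucuronosyltransferases of the Ugt1a locus differed from each other. These genes have separate first exons and share their remaining exons, so a probe in the shared part would read all of them, and the position of each probe is unknown here. In the RefSeq order the locus runs Ugt1a10, Ugt1a9, Ugt1a7c, Ugt1a6b, Ugt1a6a, Ugt1a5, Ugt1a2 and Ugt1a1. Of these 8 genes 5 were tested, of which 2 were higher, 1 was lower and 2 were not called. Ugt1a9, a form known in humans for phenols and drugs, was detected in 5 of 10 labelled mutants (4.43 to 6.22, median 5.28) and in all 11 labelled controls (5.82 to 7.48, median 6.91). The measured difference was -1.38 ± 0.26 (limma adjusted p = 3.73e-04), and 6 labelled mutants lay below every labelled control. As 5 labelled mutants were not above background, its size depends on the background level, and it was -0.73 ± 0.14 without background correction and -1.66 ± 0.32 with the deposited processed values, called in both. Ugt1a1, the enzyme that conjugates bilirubin, read 5.68 to 6.93 in the labelled mutants (median 6.45), against 5.45 to 6.29 in the labelled controls (median 5.94). It was 1.43-fold higher (0.52 ± 0.13, limma adjusted p = 0.00567), with 7 labelled mutants above all labelled controls. Ugt1a7c read 6.91 to 8.07 in the labelled mutants (median 7.63), against 6.82 to 7.48 in the labelled controls (median 7.14). It was 1.36-fold higher (0.44 ± 0.11, limma adjusted p = 0.00657), while a second, dimmer probe of it was not called (0.24 ± 0.20, limma adjusted p = 0.453), and under median scaling the first probe had 0.39 ± 0.13 and was not called (limma adjusted p = 0.0505). Ugt1a6a had 0.00 ± 0.09, and the 3 tested probes of Ugt1a10 gave -0.06, -0.10 and -0.13, none of them called.

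**Figure D3:**
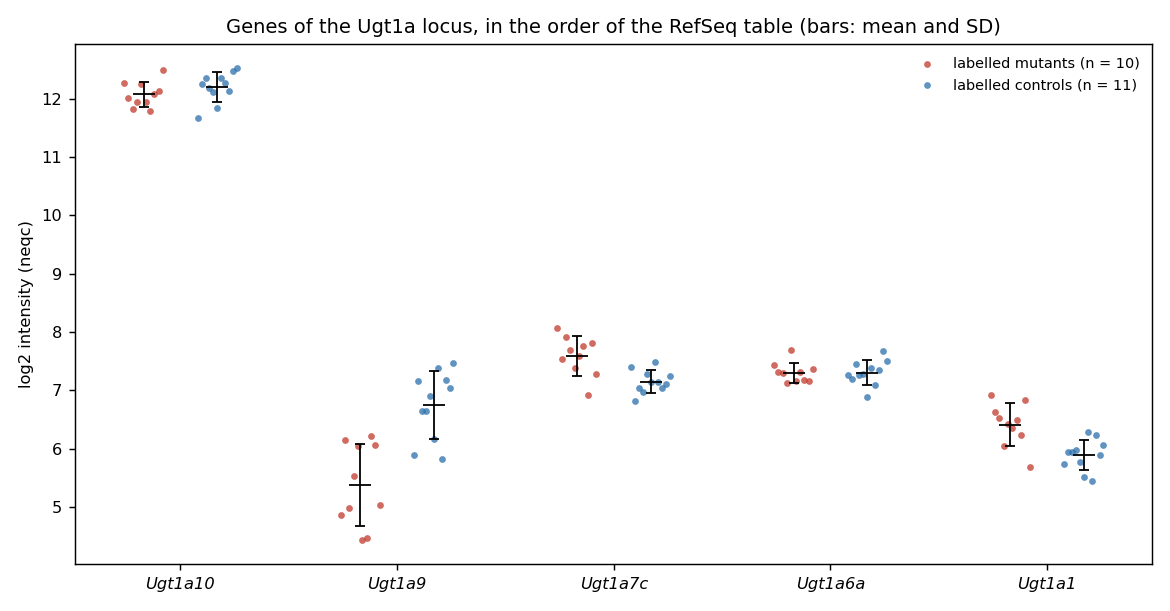
Signal of the 5 tested genes of the Ugt1a locus on each array, in their order along the chromosome (vertical axis, log2 intensity; red points, 10 labelled mutants, left; blue points, 11 labelled controls, right; bars, mean and SD). Ugt1a9 is lower in the labelled mutants (difference -1.38), Ugt1a7c (0.44) and Ugt1a1 (0.52) are higher, and the groups of Ugt1a10 and Ugt1a6a overlap almost fully.

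The promoters of Ugt1a1 and Ugt1a9 are shown because these genes of 1 locus were called in opposite directions. They are the 250 bases before each start in build GRCm38.p6, from RefSeq, for Ugt1a1 at chr1:88211709-88211958 and for Ugt1a9 at chr1:88070529-88070778, both on the plus strand and without marked bases.
Ugt1a1: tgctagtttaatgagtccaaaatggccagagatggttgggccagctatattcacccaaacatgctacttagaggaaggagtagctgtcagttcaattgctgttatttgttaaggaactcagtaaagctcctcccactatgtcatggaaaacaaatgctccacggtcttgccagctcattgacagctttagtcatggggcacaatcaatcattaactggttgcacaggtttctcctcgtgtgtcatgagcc
Ugt1a9: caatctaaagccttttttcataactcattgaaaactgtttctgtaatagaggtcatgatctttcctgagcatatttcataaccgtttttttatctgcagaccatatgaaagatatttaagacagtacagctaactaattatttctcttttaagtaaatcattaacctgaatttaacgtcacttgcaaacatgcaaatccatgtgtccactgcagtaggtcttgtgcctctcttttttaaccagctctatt
The longest run of bases these windows share is 10.

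The Ugt2 genes lie in a run of 13 members together with Sult1b1, Sult1d1 and Sult1e1, of which 4 were tested. Ugt2b36, of the steroid-conjugating Ugt2b branch, read 8.86 to 9.38 in the labelled mutants (median 9.14), against 8.50 to 9.09 in the labelled controls (median 8.82). It was 1.28-fold higher (0.36 ± 0.08, limma adjusted p = 0.00129), and a second probe gave 0.39 ± 0.08 (limma adjusted p = 6.3e-04). The first probe was not called without the 6 arrays with Car1 signal, at 0.29 ± 0.11 (limma adjusted p = 0.105), nor under median scaling, at 0.27 ± 0.12 (limma adjusted p = 0.152). Ugt2b34 read 5.40 to 7.19 in the labelled mutants (median 6.06), against 5.09 to 6.07 in the labelled controls (median 5.62). It missed the threshold (0.46 ± 0.17, limma adjusted p = 0.0529) but was called higher in 4 of 15 alternative analyses, among them the one without the 6 arrays with Car1 signal (0.84 ± 0.20, limma adjusted p = 0.00931). Ugt2b35 had 0.07 ± 0.11 (limma adjusted p = 0.732).

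Differences of the aldo-keto reductases ran from -0.25 to 0.29. Akr1a1, the aldehyde reductase that in mice also serves vitamin C synthesis from glucuronate, read 13.18 to 13.42 in the labelled mutants (median 13.29), against 13.001 to 13.34 in the labelled controls (median 13.13). It was 1.10-fold higher (0.14 ± 0.05, limma adjusted p = 0.0419), with 3 labelled mutants above all labelled controls. That call was lost in 8 of 15 alternative analyses, and a second probe was not called (0.11 ± 0.05, limma adjusted p = 0.164). The aldose reductase relatives Akr1b10 (-0.16 ± 0.07, limma adjusted p = 0.0859) and Akr1b8 (-0.07 ± 0.11, limma adjusted p = 0.739) were not called. Akr1b8 read 4.82 to 5.66 in the labelled mutants (median 5.48), against 5.11 to 5.95 in the labelled controls (median 5.40). Akr1c12 (-0.15 ± 0.12) and Akr1c19 (-0.25 ± 0.13), of the branch that acts on steroids and prostaglandins, and Akr1e1 (0.29 ± 0.19) were not called either.

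The other 52 members were detected on too few arrays to be tested, and their dim probes give no level. Among the Ugt genes these were Ugt1a2, Ugt1a5, Ugt1a6b, Ugt2a1, Ugt2a2, Ugt2a3, Ugt2b1, Ugt2b5, Ugt2b37, Ugt2b38, Ugt3a1, Ugt3a2 and Ugt8a. Among the sulfotransferases they were Sult1b1, Sult1c1, Sult1c2, Sult1e1, Sult2a1, Sult2a2, Sult2a6, Sult2a8, Sult3a1, Sult3a2, Sult5a1 and Sult6b1. Among the carboxylesterases they were Ces1a, Ces1b, Ces1d, Ces1g, Ces2a, Ces2b, Ces2d-ps, Ces2f, Ces2g, Ces3a, Ces3b, Ces4a and Ces5a. The dehydrogenases not tested were Adh6-ps1, Adh7, Aldh3a1, Aldh3b2, Aldh7a1, Aldh8a1 and Aldh9a1, and the aldo-keto reductases were Akr1c6, Akr1c13, Akr1c14, Akr1c18, Akr1c20, Akr1c21 and Akr1d1. Ces2c was not analysed here. Of these, a probe of Ugt2a3 and a probe of Ugt8a were each detected in 4 labelled mutants and in no labelled control, and Ces1d in no labelled mutant and in 3 labelled controls. The other probes of Ugt2a3 and Ugt8a were detected on no array.

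Values within each side of the array split were set beside the pooled ones. Aldh1a1 differed by 2.02 on side A and 2.26 on side B, Adh1 by 0.75 and 0.78, and Aldh1a7 by 1.18 and 1.29. Adh4 had 1.20 on side A and 1.99 on side B, and Sult2b1 had 1.01 and 1.43. The difference of Ugt1a9 was -1.85 on side A (limma adjusted p = 0.00544) and -1.04 on side B (limma adjusted p = 0.0509). On side B the calls of Ugt1a1 (0.55, limma adjusted p = 0.0778), Ugt1a7c (0.31, limma adjusted p = 0.256), Aldh1l1 (0.33, limma adjusted p = 0.0591), Aldh3a2 (0.33, limma adjusted p = 0.0522), Aldh3b1 (-0.44, limma adjusted p = 0.109) and Akr1a1 (0.23, limma adjusted p = 0.0662) were lost as well. On side A those of Ugt2b36 (0.29, limma adjusted p = 0.156), Ces1f (0.59, limma adjusted p = 0.10) and Akr1a1 (0.05, limma adjusted p = 0.705) were lost. Each called member kept its direction on both sides. The sides are parts of the same arrays that gave the calls, so this is not an independent check. High signal of Xist, which marks female embryos, occurred on 6 arrays of each group. No tested member differed with it or had an interaction of it with genotype. Of the 16641 probes tested 8 differed with it, and 1 probe had such an interaction.

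**Figure D4:**
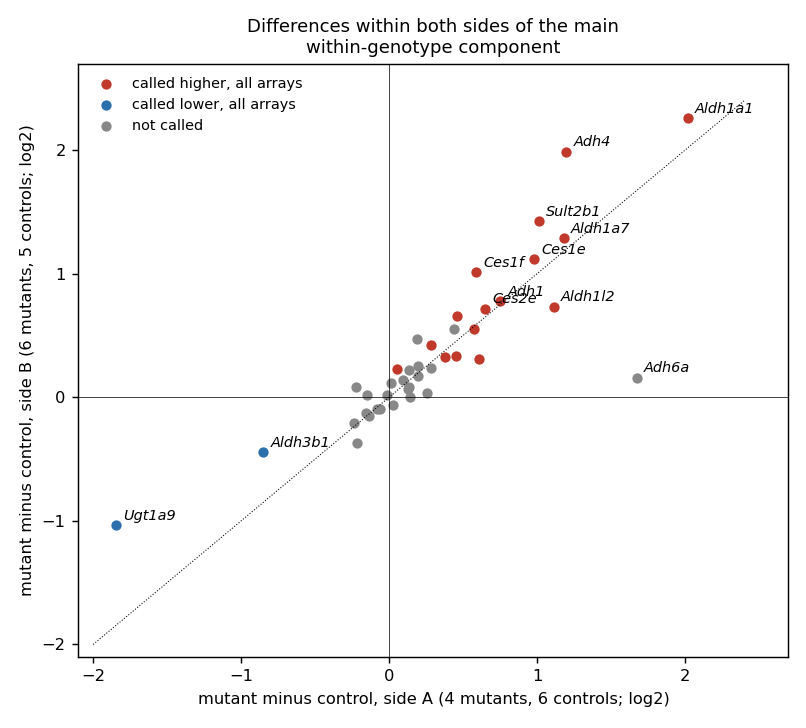
Difference between the genotypes for the 41 tested members on side A (horizontal axis, 4 labelled mutants and 6 labelled controls) against side B (vertical axis, 6 labelled mutants and 5 labelled controls) of the main variation within genotypes, in log2 intensity, labelled mutants minus labelled controls. Colours give the call over all arrays (red higher, blue lower, grey not called) and the dotted line marks equal differences. Called genes lie on the same side of 0 on both axes, but their calls come from these same arrays. Adh6a (1.67 on side A, 0.16 on side B) is farthest from the line to the right.

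The sequence AGNGAAAG, the core of the Blimp1 consensus, was searched on both strands of the RefSeq promoter windows, which run from 250 bases before to 50 bases after each start in build GRCm38.p6. A window was present for 75 of the 93 members and for 16 of the 18 called ones. At least 1 match was found in 4 of the 16 called members (25%), Adh5, Akr1a1 and Aldh1l1, which were higher, and Aldh3b1, which was lower. It was found in 2 of 20 tested members that were not called (10%) and in 9.91% of all 27025 genes of the table. The antioxidant response core TGACNNNGC was found in none of the 16 called members, in 3 of the 20 not called and in 13.99% of all genes, and CAAAGTCC, part of the sites bound by Hnf4, in none of either and in 1.63% of all genes. None of these patterns contains another, and a match describes the letters alone. The promoters of Adh5 (chr3:138436950-138437199, plus strand) and Aldh3b1 (chr19:3929779-3930028, minus strand) are shown as the matched members called in opposite directions with the largest differences. Capitals mark the match, which in Aldh3b1 lies on the opposite strand.
Adh5: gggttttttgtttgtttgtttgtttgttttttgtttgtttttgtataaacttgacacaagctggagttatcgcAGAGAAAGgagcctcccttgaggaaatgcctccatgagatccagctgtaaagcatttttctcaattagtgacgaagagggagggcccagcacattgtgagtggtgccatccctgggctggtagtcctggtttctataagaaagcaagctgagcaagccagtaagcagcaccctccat
Aldh3b1: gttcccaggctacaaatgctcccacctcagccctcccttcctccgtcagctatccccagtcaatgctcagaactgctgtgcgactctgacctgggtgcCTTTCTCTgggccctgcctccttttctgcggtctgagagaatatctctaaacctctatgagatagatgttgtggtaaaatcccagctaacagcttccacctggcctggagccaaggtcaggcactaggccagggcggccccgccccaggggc
The match begins at position -177 from the start in Adh5 and at position -152 in Aldh3b1.

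Genes that supply, reverse, transport or regulate these reactions were also examined. The list counts here and below stand beside 10.6% of all genes called higher and 12.6% called lower. Of the 3 measured genes listed for UDP-glucuronate supply 2 were lower and none higher. The lower ones were Slc35b4, a transporter of nucleotide sugars (-0.25 ± 0.06), and Ugp2, which makes UDP-glucose (-0.21 ± 0.05). Whether Slc35b4 carries UDP-glucuronate was not tested. Ugdh and Slc35d1 of that list were undetected or had no probe assigned, so these values do not cover the supply as a whole. Of the 5 measured genes that supply active sulfate 2 were lower and none higher, while Impad1 and Slc26a2 were undetected or had no probe assigned. Papss1, which makes the sulfate donor PAPS, read 10.14 to 10.64 in the labelled mutants and 10.72 to 10.96 in the labelled controls (-0.36 ± 0.06, limma adjusted p = 1e-04), without overlap, and the PAPS transporter Slc35b3 had -0.30 ± 0.06.

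Of 7 listed genes of enzymes that remove conjugates and of related factors, 5 were measured. Of these 3 were lower and none higher, beside 12.6% of all genes called lower. Sts and Sumf1 were undetected or had no probe assigned. Whether the measured enzymes act on the products of the members was not tested. Gusb encodes beta-glucuronidase, the lysosomal enzyme that cleaves glucuronides. It read 9.89 to 10.42 in the labelled mutants (median 10.24), against 11.43 to 12.07 in the labelled controls (median 11.65). The groups did not overlap, and the difference was -1.54 ± 0.09 (limma adjusted p = 1.08e-11). The lysosomal sulfatases Arsg (-0.93 ± 0.18, limma adjusted p = 3.81e-04) and Arsa (-0.53 ± 0.06, limma adjusted p = 1.34e-06) were also lower. Of the 8 measured transporters of conjugates and drugs 2 were higher and 2 lower. Abcc3, which exports glucuronides to the blood side, read 6.40 to 7.80 in the labelled mutants (median 6.87), against 4.97 to 5.90 in the labelled controls (median 5.64). It was higher without overlap (1.49 ± 0.17, limma adjusted p = 3.38e-07). Abcc2, which exports conjugates to the lumen, was lower (-0.59 ± 0.10, limma adjusted p = 1.04e-04), and the uptake carrier Slco2b1 was higher (0.70 ± 0.09, limma adjusted p = 2.46e-06).

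Of 15 measured regulators of genes of xenobiotic metabolism 3 were higher and 5 lower, beside 10.6% and 12.6% of all genes. The lipid-activated receptor Pparg was higher (0.80 ± 0.07, limma adjusted p = 1.86e-08), and Cebpb (-0.50 ± 0.09) and the bile acid receptor Nr1h4 (-0.48 ± 0.06) were lower. Of 12 measured targets of the oxidative stress factor Nrf2 2 were higher and 3 lower, with Nqo1 at 0.57 ± 0.10, Cbr1 at 0.50 ± 0.07 and Hmox1 at -0.87 ± 0.28. Of 11 measured genes of retinoid handling 2 were higher and 2 lower. The retinol dehydrogenase relative Rdh7 was higher (0.80 ± 0.14, limma adjusted p = 1.87e-04), Lrat, which esterifies retinol for storage, was lower (-0.76 ± 0.18, limma adjusted p = 0.00402), and Bco1, which cleaves beta-carotene, was detected in 5 of 10 labelled mutants and in no labelled control (at least 1.10-fold, limma adjusted p = 0.00435).

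Markers of other cells and tissues also differed between the groups, and their part in the differences above was not tested. The marker counts stand beside 10.6% of all genes called higher and 12.6% called lower. Of 6 measured markers of epithelium 3 were higher (Krt19 0.92 ± 0.07, Vil1 0.64 ± 0.09 and Krt8 0.46 ± 0.08) and 1 lower (Krt18 -0.66 ± 0.07). Cdh1 (-0.005 ± 0.09) and Cdx2 (0.11 ± 0.21) were not called, and Epcam, Fabp1 and Fabp2 were undetected or had no probe assigned. The summed intensity was 16599 to 21527 in the labelled mutants and 12668.5 to 15529 in the labelled controls. Each sum in this paragraph adds probes whose levels are not comparable, so the brightest probes weigh most in it. All 4 measured leukocyte markers were lower, with sums of 731.8 to 1179.9 in the labelled mutants and 1586.4 to 1985.3 in the labelled controls. Ptprc and Cd68 of that list were undetected or had no probe assigned. Of 9 measured liver markers 4 were lower and none higher, with sums of 1255.6 to 2355.2 in the labelled mutants and 3056.5 to 7303.9 in the labelled controls. The lower ones were Ttr (-2.53 ± 0.19), Trf (-2.14 ± 0.13), Fga (-1.82 ± 0.19) and Itih3 (-1.65 ± 0.19). Ahsg, Apoa2, Fgg, Serpina1a and Ambp were not called. Alb and Fgb of the liver list were undetected or had no probe assigned. Neither of the 2 measured endothelium markers was called. Of 9 markers of mesenchyme and muscle 1 was higher and none lower, with sums of 29392.4 to 42602.9 in the labelled mutants and 27913 to 39082.2 in the labelled controls. Of 5 pancreas markers 1 was lower, with wide sums of 278.6 to 39732.1 in the labelled mutants and 895.5 to 22205.6 in the labelled controls. Of 4 measured colon markers 1 was higher and 1 lower, with sums of 279.04 to 664.9 in the labelled mutants and 524.8 to 871.7 in the labelled controls. Car1 was detected in 6 labelled mutants and in no labelled control, and Aqp8 was lower (-1.58 ± 0.16). Without the 6 arrays with Car1 signal 16 members were higher and 1 lower. Without the 2 labelled controls high in several liver markers 15 were higher and 2 lower.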

How the data were processed

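RNA from whole small intestine was hybridised as biotinylated cRNA to 1 bead array per sample, per the labels' protocols. The deposited raw table holds 1 linear intensity per probe and array, and beside it a detection p-value in steps of 1 in 936. The submitters' processing notes name GenomeStudio 2009.2. The deposited processed table also holds linear intensity values, each array's being a straight-line function of its raw values. Its normalisation is a step not given in the sources used here. No column of another sample was present.

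The raw values were background-corrected, given an offset of 16, quantile-normalised and put on the log2 scale with neqc in limma 3.58.1 (R 4.3.3). The offset draws differences of dim probes towards 0. Probes with detection p under 0.01 on at least 5 of 21 arrays were tested, 16641 of 45281. Groups followed the sample titles. They were compared with lmFit and eBayes, genotype being the only term, two-sided, with Benjamini-Hochberg adjustment. For a probe undetected on all arrays of 1 group, the difference is given as a bound against the lowest detected signal of each array. The number of arrays limits the precision.

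The platform annotation gave 1 symbol for 34885 probes, several for 18 and none here for 10378, and 34807 were matched to RefSeq by gene number. A gene is its brightest tested probe. Of 18 further tested probes of the members, 2 had the opposite sign and 2 a different call, in no case with opposite signs and both called. Named were, per family, the called genes with the 5 largest differences, any further called gene of at least 2-fold, a fixed set whatever their result, and up to 3 called genes of each related list, while other members are given more briefly. The sixth called Aldh gene is given in full beside its relatives, a choice made after its values were seen. The members, lists and tests were chosen with earlier results of these data known.

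Replicate numbers in the titles did not pair the samples. Correlations of same-numbered samples ran from -0.25 to 0.30, with 6 of 10 pairs over 0.1, and no mutant correlated best with its own number. The fit was tested on simulated data. Alternatives were median scaling, no background correction, the processed values, other filters and offsets, array weights, the replicate block, every probe counted and arrays left out by liver markers. Those chosen after seeing the data were arrays left out by Car1 or Ahsg, the array split as a term or within its sides, and Xist as a term.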

Additional observations from a re-analysis of the deposited data

Results flagged for a closer look

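In 3 members 1 labelled mutant stood apart from the other labelled mutants by its gap to the nearest array, relative to the range of the group. Such a gap arises by chance in about 1 in 20 groups. For Ugt1a6a it was mutant 5, at 7.70 log2 intensity, with the next array at 7.43. For Aldh6a1 it was mutant 5 again, at 7.59, with the next at 7.03. For Akr1e1 it was mutant 10, at 5.67, with the next at 6.61. None of these genes was called between the genotypes.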

How the results depend on the processing

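Over the 614 combinations of a tested member and an alternative, 562 kept their direction and their side of the threshold, 21 lost a call, 18 gained one and 13 changed sign, the last only in genes that were not called. Sult2b1, Ces1e, Ces2e, Adh1, Adh4, Adh5, Aldh1a1, Aldh1a7 and Aldh1l2 kept their call in all 15 alternatives, though the size moved for dim genes. Adh4 had 0.78 without background correction and 2.08 with the deposited processed values, and Ces1e had 0.47 and 1.52. Without background correction Ugt1a9 had -0.73, Ugt1a1 0.29, Ces1f 0.39 and Aldh1l2 0.43, all still called.

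With a common median, genes called higher numbered 462 in place of 1054, members called lower 4, Ugt higher 1, Aldh lower 2, and Akr1 higher 0 and lower 1, and Ugt1a6a had -0.054. Without the 6 arrays with Car1 signal, 556 genes were higher and 695 lower in place of 1253, 1 member was lower, Aldh lower and Akr1 higher were 0, Sult1d1 had 0.086 and Sult4a1 -0.025. On side A 553 genes were higher and 824 lower, Akr1 higher 0, Ugt1a6a -0.012 and Aldh2 0.028. On side B 531 were higher and 701 lower, members lower 0, Ugt higher 1 and lower 0, Aldh higher 3 and lower 0, Akr1 higher 0, Sult1d1 0.019 and Akr1b8 0.084. Leaving out arrays leaves fewer samples, and for the other changes the cause was not tested. Counting every probe gave 4 member probes lower, 3 Aldh probes lower and 3 Sult probes higher. With no filter, 5 Ugt and 5 Ces genes were higher. Aldh lower was 2 without background correction, with the processed values, with detection on 10 arrays, with an offset of 50, with array weights and with the side as a term, and Akr1 higher was 0 with the processed values and without the arrays high in liver markers or in Ahsg. Array weights gave Ugt1a6a -0.026 and Aldh2 0.034. Aldh2 was 0.0087 without the arrays high in 3 liver markers, 0.041 without the 3 high in Ahsg and 0.0067 with Xist as a term.

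With the replicate number as a block, 15 members were higher and 3 lower, Aldh lower being 2, Akr1 higher 0 and Aldh2 0.00060; the numbers did not pair the samples. The planned removal of arrays high in 2 colon markers gave no value, since no array met it. Probes not above background limit what can be said of the 52 untested members.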
